A study of Rattus norvegicus with 18 samples.

Results

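The angiopoietins and their Tie receptors were followed in rat soleus muscle as 4 genes, Angpt1, Angpt2, Tek and Tie1. A probe set, the unit of these Affymetrix arrays, counted as a member when one of these was its single gene symbol. Each gene was matched by 1 probe set, so 4 of the 31042 probe sets tested and 4 of the 14217 named genes were members.

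The muscle came from 9 male rats, 5 with chronic kidney disease after 5/6 nephrectomy (SNX) and 4 that were sham operated. After 8 weeks the right femoral artery of every rat was ligated and resected, and both soleus muscles were taken 24 hours later. Each limb gave 1 array, which made 4 groups, sham left and sham right (n = 4 rats each) and SNX left and SNX right (n = 5 rats each). The source field of the labels names both limbs of sham rats nonischemic and both limbs of SNX rats ischemic, against the design text, so groups are named here by side. The left limb was in all cases the other limb of a rat with a ligated right limb, and muscle of rats without any ligation was not analysed here. Strain and age are not given in the sources used here.

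Tek codes for Tie2, a receptor tyrosine kinase found mainly on endothelial cells, and Tie1 codes for its relative, which has no firmly established ligand of its own and modulates Tie2 signalling. Angiopoietin-1, made largely by perivascular and other non-endothelial cells, activates Tie2 and keeps vessels quiescent. Angiopoietin-2 is made and stored by endothelial cells, and in many settings it opposes angiopoietin-1 and accompanies the loosening of vessels that precedes sprouting or regression.

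All levels below are the authors' normalized values on the log2 scale, where a difference of 1 is a doubling, and levels of different genes cannot be compared on it. Array medians lay between 3.22 and 3.37. The probe sets of Angpt1 and Tie1 were dim, with means over the 18 arrays of 3.68 and 4.28, close to those medians, so sizes of their differences are uncertain. The probe sets of Angpt2 and Tek had means of 6.70 and 8.73. Ligated muscle of rat 17 (sham) and of rat 49 (SNX) gave the least typical arrays, which correlated with the rest at 0.978 and 0.98 on average. On these arrays 11 macrophage markers averaged 9.24 and 8.68, and on no further array did they average above 7.27. Muscle fibre markers were present on every array, with means of 10.77 to 14.77 over 8 slow fibre genes and of 14.62 to 14.96 over 7 fast fibre genes. The slow fibre mean thus varied far more between arrays than the fast fibre mean, and the fast fibre gene Myh4 averaged 15.34. Whether the arrays differ in the muscle or the part of it that was sampled was not tested.

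Angpt2 was higher in the ligated than in the unligated muscle of every rat, and it was the member whose right against left difference passed the test in the fit that did not pair the limbs. Sham left values were 6.38 in rat 11, 6.35 in rat 13, 6.22 in rat 15 and 6.17 in rat 17. Sham right values in the same order were 7.61, 7.63, 7.89 and 7.35, so every right value lay more than 0.9 above every left value. SNX left values were 5.79 in rat 12, 6.16 in rat 18, 5.53 in rat 20, 6.17 in rat 37 and 5.83 in rat 49. SNX right values in that order were 6.34, 7.20, 7.96, 6.79 and 7.15. In the SNX rats the groups also did not overlap, but the right values spread more widely, from rat 12 just above the left values to rat 20 well above them. Right and left values did not overlap for 8.64% of all probe sets in sham rats and for 1.95% in SNX rats.

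**Figure D1:**
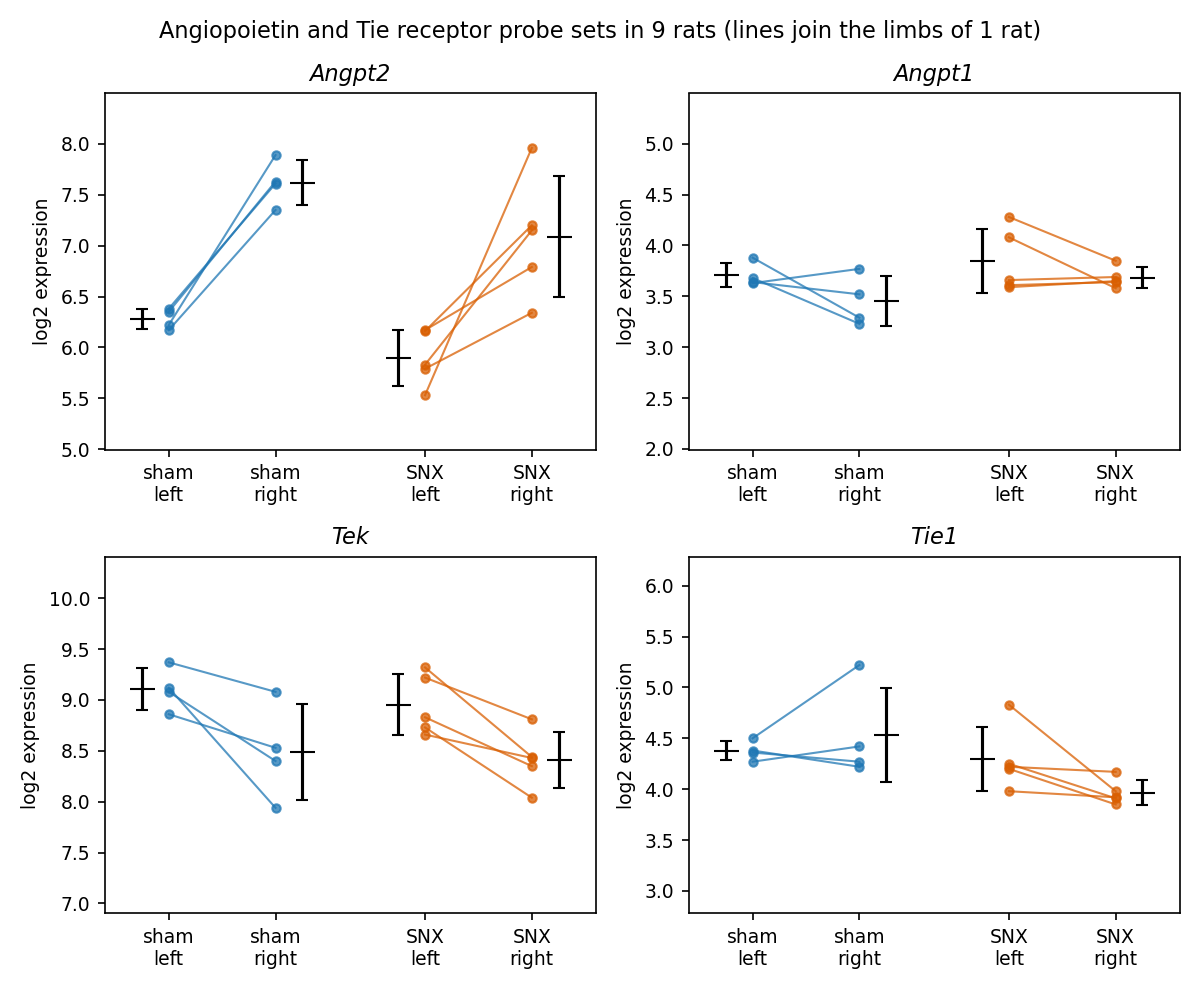
Log2 expression of the 4 genes in the left and right soleus of sham rats (blue, n = 4) and SNX rats (orange, n = 5), each panel spanning 3.5 log2 units. Lines join the limbs of 1 rat, and black bars give the group mean ± SD. Angpt2 is higher on the right in all 9 rats and Tek lower in all 9, while Angpt1 and Tie1 show no common direction.

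Over all 9 rats Angpt2 rose 2.41-fold on the right (log2 difference 1.27 ± 0.17, SE, limma adjusted p = 0.0027). The call held in all 9 fits that left out 1 rat, with adjusted p between 0.00174 and 0.0212. Of all probe sets, 2.55% were called in this comparison, 1.55% as higher and 0.999% as lower, and 99.1% of all had a smaller signed difference than Angpt2. A second fit treated the rat as a random block, so that limbs of one animal are paired, and called 9.05% of probe sets, 4.56% as higher and 4.48% as lower.

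In sham rats alone the mean of Angpt2 went from 6.28 ± 0.10 (SD, n = 4) on the left to 7.62 ± 0.22 on the right, which is 1.34 ± 0.25 higher (SE, adjusted p = 0.0513 by limma). With the rat as a block the standard error was 0.23 and the difference passed (adjusted p = 0.0129), but it did not with the rat as a fixed term, the other paired fit (adjusted p = 0.0998). In SNX rats the mean went from 5.90 ± 0.27 (SD, n = 5) to 7.09 ± 0.60, a difference of 1.19 ± 0.23 (SE, adjusted p = 0.107, 0.0296 with the random block and 0.175 with the fixed term). Without the block, limma called 0.148% of all probe sets in the sham comparison and 0.0451% in the SNX comparison. With it these shares were 1.8% (0.999% as higher) and 0.319% (0.232% as higher). The blocked call in sham rats was lost without any 1 of the sham rats, at adjusted p = 0.0779 (rat 11), 0.0615 (rat 13), 0.0558 (rat 15) and 0.0604 (rat 17). The blocked call in SNX rats was lost without sham rats 11, 13 or 15 (0.056, 0.0628 and 0.0546) and without SNX rats 18, 37 or 49 (0.114, 0.0904 and 0.18). Without both arrays of rats 17 and 49 the difference was 1.40 in sham rats (adjusted p = 0.0469 with the block) and 1.16 in SNX rats (0.143).

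The increase within each rat was 1.23, 1.28, 1.68 and 1.18 in sham rats 11, 13, 15 and 17. It was 0.55, 1.04, 2.43, 0.62 and 1.32 in SNX rats 12, 18, 20, 37 and 49, so the SNX rats held both the smallest and the largest increase. The difference between the responses of SNX and sham rats was -0.15 with a 95% interval of -0.81 to 0.51 (limma with the block, adjusted p = 0.976). Differences of either sign within these bounds remain undecided.

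Angpt1, the activating ligand, did not pass in any comparison. Its left values were 3.88, 3.64, 3.63 and 3.68 in sham rats 11, 13, 15 and 17, and its right values were 3.29, 3.52, 3.77 and 3.23. In SNX rats 12, 18, 20, 37 and 49 the left values were 3.61, 3.66, 3.59, 4.28 and 4.08 and the right values 3.64, 3.69, 3.65, 3.85 and 3.58. Rats 37 and 49 stood highest on the left, and all groups overlapped. The right against left difference over all rats was -0.21 ± 0.10 (SE, limma adjusted p = 0.276, and 0.142 with the block), with 4 rats higher and 5 lower.

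The change of Angpt2 exceeded that of Angpt1 within every rat, by 1.46 ± 0.54 on the log2 scale (SD, n = 9 rats, range 0.53 to 2.37). An exact two-sided sign-flip permutation test over the rats gave p = 0.00391, the smallest it can give with 9 rats (0.00391 after adjustment over the 3 pairs of members tested). The means were 1.59 in the sham rats and 1.35 in the SNX rats, where 4 and 5 rats cannot give a p below 0.125 and 0.0625. This compares how the ligands changed and says nothing of which was more abundant. No change of Angpt1 was above 0.14 and none of Angpt2 was below 0.55. The test could therefore give only its smallest p and adds nothing to those changes. The probe set of Angpt1 was the dimmer of the 2, so its change may be understated and the gap between the ligands may be affected.

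Tek, the gene of the Tie2 receptor, was lower in the ligated muscle of 9 of 9 rats, the opposite direction to Angpt2. Sham left values were 8.86, 9.37, 9.08 and 9.12 in rats 11, 13, 15 and 17, and right values were 8.53, 9.08, 8.40 and 7.94. SNX left values were 8.66, 9.22, 9.32, 8.83 and 8.73 in rats 12, 18, 20, 37 and 49, and right values were 8.43, 8.81, 8.44, 8.35 and 8.04. Left and right groups overlapped in both kinds of rat. Sham rat 13 was the highest of its group in both limbs, while sham rat 17 and SNX rat 20 had high left values and a low or middling right value. All 9 rats moved the same way for 5.59% of all probe sets.

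Over all rats the log2 difference of Tek was -0.58 ± 0.15 (SE, 1.5-fold lower), which did not pass in the fit without the block (limma adjusted p = 0.0502). With the rat as a block it passed (SE 0.12, adjusted p = 0.0108, 95% interval -0.84 to -0.33), and it did so in all 9 fits that left out 1 rat (adjusted p from 0.0116 to 0.0369). Its direction was shared by the 4.48% of probe sets called as lower with the block. In sham rats alone the difference was -0.62 ± 0.22 and in SNX rats -0.54 ± 0.20 (SE), with adjusted p of 0.0879 and 0.168 with the block. The interval of the difference between these responses ran from -0.43 to 0.59. Sham rat 17 had the largest change, of -1.18, and without both arrays of rats 17 and 49 the difference over all rats was -0.47 (adjusted p = 0.0427 with the block, 0.189 without it). In muscle tissue measured as a whole, fewer endothelial cells and less Tek RNA per cell cannot be told apart.

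Tie1, the second receptor of the family, did not move as Tek did in sham rats. Its left values in sham rats 11, 13, 15 and 17 were 4.27, 4.50, 4.38 and 4.36, and its right values were 4.42, 5.22, 4.22 and 4.27. Rats 11 and 13 were higher on the right and rats 15 and 17 lower, with rat 13 far above the rest. In SNX rats 12, 18, 20, 37 and 49 the left values were 3.98, 4.22, 4.83, 4.25 and 4.20, and the right values were 3.92, 4.17, 3.98, 3.91 and 3.85. All 5 SNX rats were lower on the right, in 2 of them by under 0.1, and 11.8% of all probe sets moved 1 way in all 5. The sham rats differed by 0.16 ± 0.20 and the SNX rats by -0.33 ± 0.17 (SE, limma adjusted p = 0.697 and 0.695, and 0.572 and 0.371 with the block).

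The change of Tek lay below that of Tie1 within every rat. The difference of their changes was -0.46 ± 0.37 (SD, n = 9 rats, range -1.10 to -0.03, exact two-sided sign-flip permutation p = 0.00391, adjusted p = 0.00391 over 3 pairs). It averaged -0.78 over the sham rats and -0.21 over the SNX rats, and in SNX rat 20 the receptors changed almost equally. The receptors nevertheless varied together, with r = 0.61 over the 18 arrays and 0.82 after removing the group means. For the changes of the 9 rats r was 0.52, and these values carry no test. Tie1 was the dimmer probe set, and a dim probe set can understate a change. Angpt2 against Tek gave the widest gap, 1.83 ± 0.77 (SD, n = 9, range 0.78 to 3.31, exact sign-flip permutation p = 0.00391, adjusted p = 0.00391 over 3 pairs). Because Angpt2 was higher and Tek lower in every rat, this test could give only its smallest p and adds nothing to those directions.

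**Figure D2:**
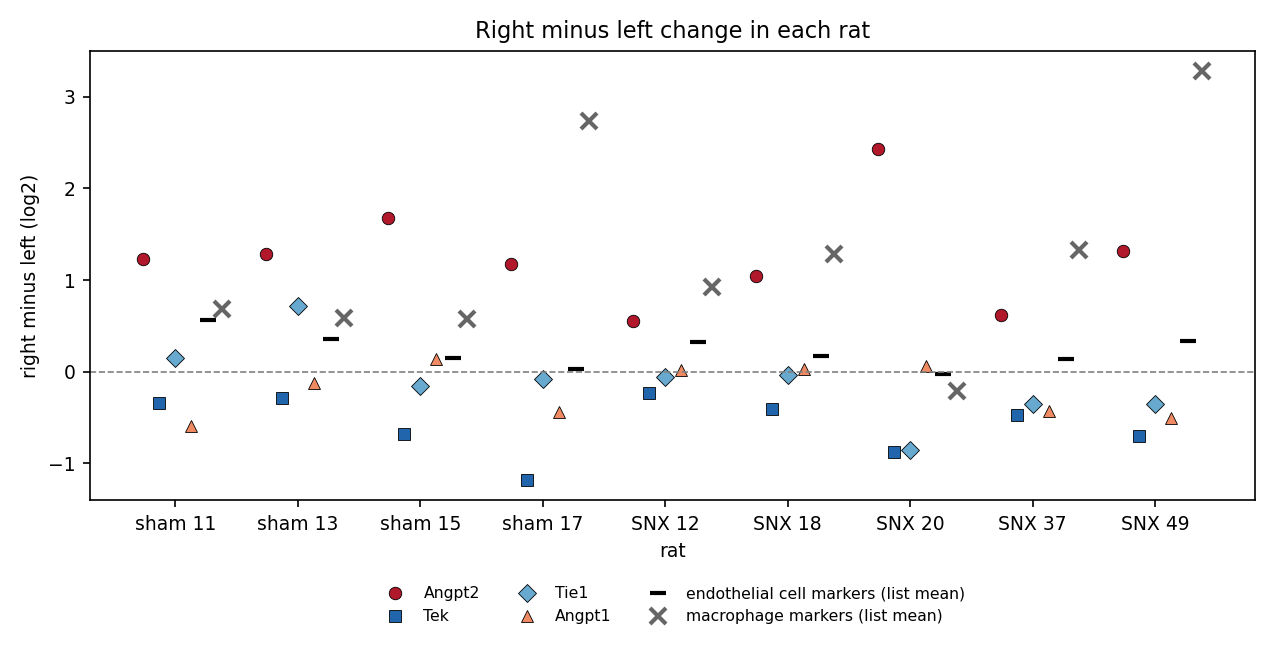
Right minus left change (log2) of the 4 genes in each of the 9 rats, with the mean change of 12 endothelial markers (bars) and of 11 macrophage markers (crosses). Angpt2 lies above and Tek below the endothelial mean in every rat, and the macrophage mean is highest in sham rat 17 and SNX rat 49.

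Endothelial markers were set beside the decrease of Tek. Of 12 measured endothelial markers, 9 lay above 0 over all rats, with a median log2 difference of 0.17, where the median of all probe sets was -0.016 and 34.1% lay above 0. Those below 0 were Ptprb (-0.14), Mmrn2 (-0.05) and Icam2 (-0.02). The part of endothelial cell number in the decrease of Tek was not tested. Kdr, the main VEGF receptor, and Pecam1, the junctional protein CD31, rose without the block (2 of 12, 16.7%, against 2.55% of all probe sets). With the random block 4 of 12 rose (33.3%, against 9.05% of all probe sets), the other two being the junction gene Cldn5 and Egfl7, and with the rat as a fixed term 2 passed. None was called as lower in the unblocked or the random block fit. Pecam1 missed the threshold without the block in 8 of the 9 fits that left out 1 rat, the exception being sham rat 13. Without both arrays of rats 17 and 49 these counts were 1 and 4. The counts without 1 rat ran from 0 to 2 without the block and from 2 to 5 with it. The blocked count was 2 without sham rats 11 or 15 or SNX rat 12. In the fits that left out 1 rat, 153 to 1007 of all probe sets were called without the block and 1163 to 3305 with it.

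The mean of the endothelial list changed by between -0.03 (SNX rat 20) and 0.56 (sham rat 11) and was higher on the right in 8 of 9 rats. Set against this mean, the change of Tek was lower in all 9 rats, by 0.56 to 1.21, and averaged -0.81 ± 0.22 (SD, n = 9). The change of Angpt2 was above it in all 9 rats, at 1.03 ± 0.65 (range 0.22 to 2.46). Tie1 changed less than the endothelial mean in 8 of 9 rats (-0.34 ± 0.34), with sham rat 13 as the exception, and Angpt1 in 8 of 9 (-0.43 ± 0.40). These values describe the members beside the list and carry no test.

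Markers of other cells differed between the limbs too. The macrophage list was higher on the right in 8 of 9 rats, with all 11 measured markers above 0 and a median difference of 1.35, and its group ranges were 5.89 to 6.68 (sham left), 6.57 to 9.24 (sham right), 5.27 to 5.85 (SNX left) and 5.64 to 8.68 (SNX right). In SNX rat 20, which had the largest increase of Angpt2 (2.43) and the lowest change of Tie1 (-0.85), the macrophage mean changed by -0.21 and the slow fibre mean by -2.17. In rats 17 and 49, with the largest macrophage increases, Angpt2 increased by 1.18 and 1.32, near the middle of its range. Without both arrays of these rats Angpt2 was higher by 1.28 (limma adjusted p = 0.0288). The part of the macrophage increase in the changes of Angpt2 was not tested. Slow fibre means also shifted in other rats, by 1.48 (rat 11), 1.29 (rat 17), 0.8 (rat 18) and 0.58 (rat 49). For rats 12, 15 and 13 the shift was -0.93, -0.8 and -0.11, and for rat 37 it was 0.06. The part of these slow fibre shifts, that of rat 20 included, in the changes of the members was not tested. Without rat 20, Angpt2 in SNX rats differed by 0.88 (adjusted p = 0.0244 with the block).

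Of 10 pericyte and smooth muscle markers, cells that are a source of angiopoietin-1, Pdgfrb and Kcnj8 rose and Rgs5 fell without the block, and Cspg4 also rose with it (4 of 10, against 9.05% of all probe sets). Pdgfrb, the receptor that recruits pericytes, differed by 0.70 ± 0.15 and Rgs5, a signalling regulator of mural cells, by -0.63 ± 0.13 (SE, limma adjusted p = 0.0241 and 0.0237). The unblocked call of Pdgfrb was lost in 5 of the 9 fits that left out 1 rat (sham rats 11, 13 and 17, SNX rats 37 and 49), and that of Rgs5 in 3 (sham rats 11 and 13, SNX rat 37). The list median was -0.07 with 4 of 10 above 0. Without both arrays of rats 17 and 49, 1 of the 10 passed without the block and 3 with it. Without 1 rat the counts ran from 1 to 3 and from 3 to 4.

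Around the receptors, the list of Tie pathway partners and effectors had 23 of 27 genes on the array. With the block 4 of the 23 rose over all rats (17.4%, against 9.05% of all probe sets), 1 of them also without it (4.35% against 2.55%), and none fell. The list median was 0.11. Tnip2, whose protein ABIN-2 binds Tie2 and restrains NF-kB, was that gene, at 1.31 ± 0.32 (SE, limma adjusted p = 0.0452, and 0.0111 with the block). Its unblocked call was lost in 7 of the 9 fits that left out 1 rat (adjusted p from 0.0642 to 0.139) and held without sham rat 15 or SNX rat 12. Its sham values had a mean of 4.24 ± 0.10 (SD, n = 4) on the left and 5.78 ± 0.95 on the right, and its SNX values 4.26 ± 0.23 (n = 5) and 5.34 ± 1.0, so the right values were both higher and far more variable. The others were the integrin gene Itgb1 (0.33 ± 0.08), the adaptor gene Shc1 (0.43 ± 0.10) and the membrane protease gene Mmp14 (0.43 ± 0.11), with blocked SE and adjusted p of 0.0157, 0.0188 and 0.0267. With the rat as a fixed term Itgb1 and Shc1 did not pass (adjusted p = 0.0695 and 0.0893), and 2 of the 23 genes did. Without 1 rat the unblocked count ran from 0 to 2 and the random block count from 1 to 5. The latter was 1 when sham rat 17 was left out and 2 when rat 11, 18 or 37 was, and without both arrays of rats 17 and 49 it was 3 (0 without the block).

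Ptprb, the phosphatase VE-PTP that switches Tie2 off, was among the members of that list that did not pass. Its mean was 11.31 ± 0.32 and 11.10 ± 0.28 (SD, n = 4) on the left and right of sham rats and 11.02 ± 0.37 and 10.95 ± 0.31 (n = 5) in SNX rats. Over all rats it differed by -0.14 ± 0.15 (SE, adjusted p = 0.599), lower in 6 of 9 rats. Foxo1, the transcription factor that Tie2 signalling through Akt holds in check and that promotes Angpt2 transcription, differed by 0.06 ± 0.13 (adjusted p = 0.819). The endothelial nitric oxide synthase gene Nos3 and the kinase gene Akt1 differed by 0.03 ± 0.26 and 0.15 ± 0.09 (adjusted p = 0.958 and 0.374).

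**Figure D3:**
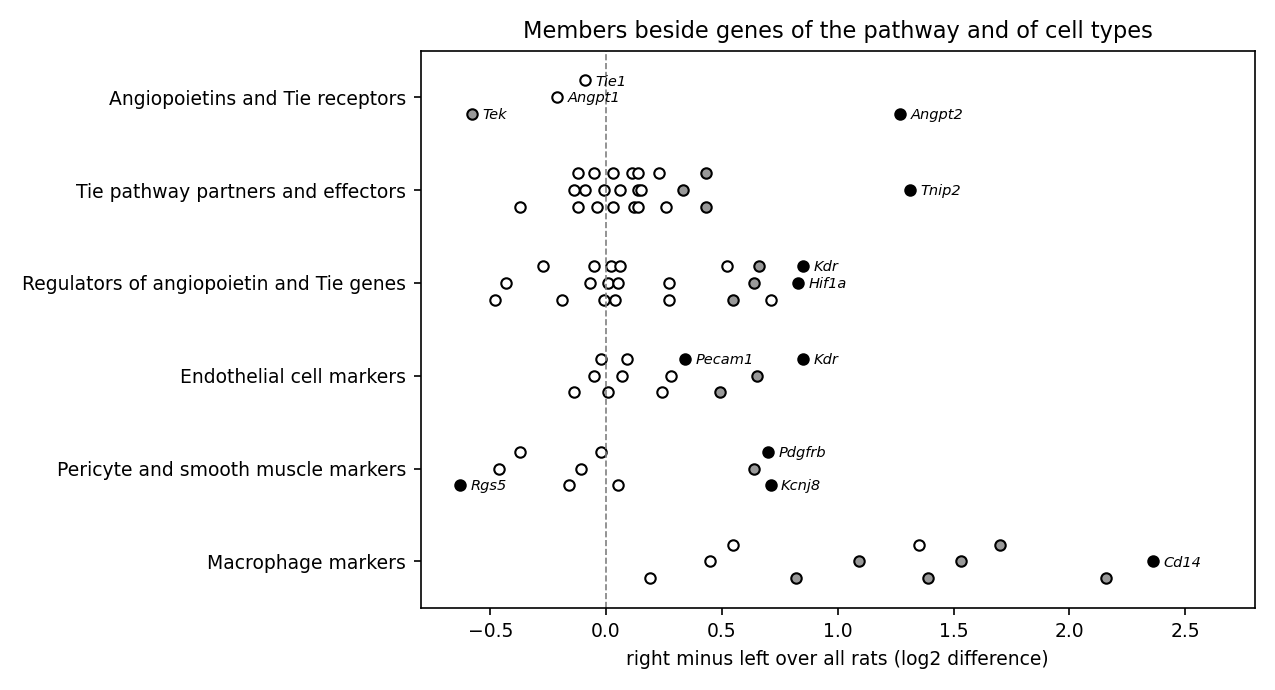
Right against left log2 differences over all rats for the 4 genes and for the genes of 5 lists, each circle 1 gene. Black circles passed without the block, grey ones only with the rat as a block, and open ones in neither fit. Tek and Rgs5 are the filled circles left of 0.

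Among 21 measured genes that regulate angiopoietin and Tie expression, 5 rose over all rats with the block (23.8%, against 9.05% of all probe sets), 2 of them without it (9.52% against 2.55%), and none fell, with a list median of 0.05. Kdr, which is also in the endothelial list, rose by 0.85 ± 0.15 and Hif1a, a subunit of the hypoxia-inducible factor, by 0.83 ± 0.18 (SE, limma adjusted p = 0.0104 and 0.0282). Without sham rat 11 Kdr missed the threshold (adjusted p = 0.0511). Hif1a missed it without rats 11 (0.0867), 17 (0.113), 18 (0.0612) or 37 (0.0944), and without both arrays of rats 17 and 49 (0.127). With the rat as a fixed term it was not called (adjusted p rounds to 0.05). The unblocked count of the list ran from 0 to 2 when 1 rat was left out, and it was 2 with the fixed term. Vegfa, which induces Angpt2 in endothelial cells, was higher on the right in 9 of 9 rats, where 5.59% of all probe sets moved 1 way in all 9. It passed with the block (0.64 ± 0.17, SE, limma adjusted p = 0.0331) but not without it (adjusted p = 0.144). Its blocked call held in 3 of the 9 fits that left out 1 rat (adjusted p from 0.0269 to 0.101). The ETS family genes Elf1 and Elk3 passed with the block as well (adjusted p = 0.0402 and 0.0338). The blocked count was 3 without both arrays of rats 17 and 49, and 2 without any of sham rats 11, 13 and 17 or SNX rats 18, 37 and 49.

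Between SNX and sham rats no member passed in either limb. In the left limb 0.00644% and in the right limb 0% of all probe sets were called by limma, with and without the block. An unadjusted p under 0.05 was held by 6.25% on the left and 9.25% on the right without the block, and by 9.67% on the right with it. On the left, Angpt2 was lower in SNX rats by 0.38 (log2 difference -0.38 ± 0.24, SE, adjusted p = 0.87). The left groups did not overlap, as for 2.52% of all probe sets, but only by a margin lost in rounding. The highest SNX value, of rat 37, and the lowest sham value, of rat 17, both rounded to 6.17. On the right, Angpt2 differed by -0.53 ± 0.24 (adjusted p = 0.498), and SNX rat 20 held the highest value of all arrays. From highest to lowest, group means of Angpt2 were 7.62 (sham right), 7.09 (SNX right), 6.28 (sham left) and 5.90 (SNX left). The neighbours within a limb were not told apart by the test.

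Among the members Tie1 had the lowest unadjusted limma p of SNX against sham rats, in the ligated limb, but it was not called. All 5 SNX right values lay between 3.85 and 4.17 and all 4 sham right values between 4.22 and 5.22. The highest sham value was that of rat 13, and the next was 4.42 in rat 11. In this comparison 8.25% of all probe sets had no overlap, and 9.25% had an unadjusted p under 0.05. The difference was -0.57 ± 0.19 (SE, limma adjusted p = 0.498, unadjusted p = 0.00775), and it ranged from -0.67 to -0.34 when 1 rat was left out. On the left it was -0.08 ± 0.19 (adjusted p = 0.961). The difference between the responses was -0.49 with a 95% interval of -0.96 to -0.01 (unadjusted p = 0.0452, adjusted p = 0.976, with the block), and 3.07% of probe sets had an unadjusted p under 0.05 there (1.41% without the block). By limma 0% were called in either fit. In the same comparison of the right limb all 12 endothelial markers lay below 0, with a median of -0.28 and none called. All 11 macrophage markers lay below 0 there, with a median of -0.67, where 69.7% of all probe sets lay above 0 (median 0.029). The left limb, where Tie1 differed little, had a similar shift. There 2 of 12 endothelial markers (median -0.28) and 0 of 11 macrophage markers (median -0.96) lay above 0, against 64.5% of all probe sets. The part of these shifts in the value of Tie1 was not tested.

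Tek and Angpt1 differed less between the kinds of rat. Tek differed by -0.16 ± 0.21 on the left and -0.07 ± 0.21 on the right, and Angpt1 by 0.14 ± 0.14 and 0.23 ± 0.14 (SE, adjusted p between 0.498 and 0.921). The intervals for Tek, -0.59 to 0.28 on the left and -0.50 to 0.36 on the right, leave differences of either sign within these bounds undecided. Group means of Tek ordered the limbs before the kinds of rat, at 9.11 (sham left), 8.95 (SNX left), 8.49 (sham right) and 8.41 (SNX right). Group means of Angpt1 lay between 3.45 and 3.84 and those of Tie1 between 3.97 and 4.53, with overlapping neighbours except for Tie1 in the right limbs.

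**Figure D4:**
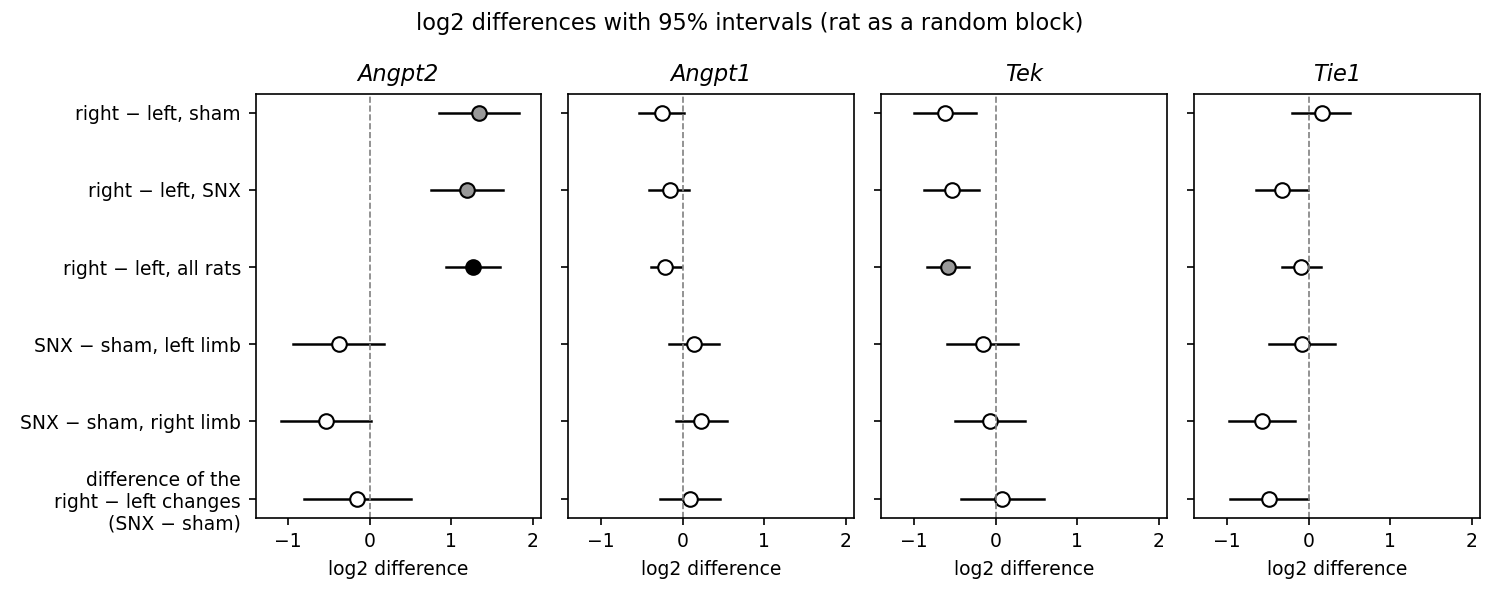
Log2 differences of the 4 genes in 6 comparisons (points) with 95% intervals from the fit that pairs the limbs through a random rat block. Black points passed without the block (Angpt2 over all rats), grey points only with it (Angpt2 within either kind of rat, Tek over all rats), and open points in neither.

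The genes whose log2 values followed each member most closely over the 18 arrays were sought among 9063 other named genes of at least median brightness. Arrays of 1 rat share an animal, and because these are the highest values of many they are given without a test. For Angpt2 they were Cd93 (r = 0.85), Junb (0.82), Ncoa7 (0.81) and Efna1 (0.81), and after removing the group means these values were 0.21, -0.16, 0.19 and 0.20. The likeness to Angpt2 thus lay in the differences between groups. For Tek they were Nherf2 (0.88), Jam2 (0.85), Apol11a (0.85) and Sema3g (0.85), and values of 0.70 to 0.82 were left within groups. For Tie1 they were Plcg1 (0.84), Colgalt2 (0.80), Zdhhc8 (0.80) and Pkd1 (0.80), and for Angpt1 Dnal1 (0.87), Asb3 (0.84), Pcnx1 (0.83) and Sumf2 (0.81). Within groups these 8 kept values of 0.74 to 0.85, so rats that were high for Tie1 or Angpt1 within a group were also high for these genes.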

How the data were processed

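Total RNA of 18 soleus samples (2 micrograms each) was labelled with biotin for Affymetrix arrays, per the labels' protocols. The deposited matrix holds log2 values of 31099 probe sets, normalized by the authors. Per the submitters' processing notes, the tools include Partek, RMA and GCRMA, with neither role nor version. RMA and GCRMA differ in background correction, which affects dim probe sets most. Groups and rat numbers came from the titles. The 57 control probe sets were left out. Symbols came from the platform annotation, updated by Entrez ID to RefSeq (GRCr8) for 20758 of 20826 probe sets with 1 gene, while 436 list several genes and 9780 none. A gene was represented by its probe set of highest mean. The precision is limited by the number of arrays.

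One mean per group was fitted over all 18 arrays with limma 3.58.1 in R 4.3.3, two-sided, Benjamini-Hochberg over 31042 probe sets, threshold 0.05. The comparison over all rats weighted both responses equally. The limbs of a number come from the same rat, and limb deviations correlated at over 0.1 in 7 of 9 rats. A random rat block (duplicateCorrelation, consensus 0.297) is therefore given where it changes a call, and "the block" means this fit. Alternatives were the rat as a fixed term, only the groups compared, each rat left out, the 2 arrays left out that stood apart, other normalizations, a brightness filter and trended robust eBayes. The scripts were tested on simulated data. Members, lists, tests and alternatives were chosen with earlier results of these data known, and the named genes are the members, list genes past the threshold (up to 3 risen and 3 fallen), Ptprb, Foxo1, Vegfa, Kdr and Pecam1 (Cdh5 not analysed here), and the 4 closest genes of each member. Itgb1, Nos3, Akt1 and further list members were also named after their values were seen.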

Additional observations from a re-analysis of the deposited data

How the results depend on the processing

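The count of members called was 0 in sham rats, 0 in SNX rats and 1 over all rats (right against left) without the block. With the rat as a random replicate block it was 1, 1 and 2. Of all probe sets 0.148%, 0.0451% and 2.55% were called without the block and 1.8%, 0.319% and 9.05% with it. In sham rats the count of members was also 1 in a fit of only these groups, with trended robust eBayes and among the brighter probe sets. It was 1 as well without the ligated limb of rats 17 (sham) and 49 (SNX), and it ran from 0 to 1 when 1 rat was left out. In SNX rats it was also 1 among the brighter probe sets. With the rat as a fixed replicate block it stayed 0 in both. Over all rats it was 2 with this fixed replicate block, among the brighter probe sets and with trended robust eBayes, and 1 to 2 when 1 rat was left out. With the replicate block, leaving out 1 rat gave 0 to 1 in sham and in SNX rats, and in SNX rats it was 0 without the 2 right limb arrays, without both arrays of rats 17 and 49, and after another quantile normalization (these last 2 chosen after seeing the data). The cause of these changes was not tested. The member gained over all rats was Tek and otherwise Angpt2, whose differences kept their direction in every fit. The block changed no other call of a member. Differences that changed sign were small and not called. When 1 rat was left out they were, with and without the block, Tie1 in sham rats (-0.03 to 0.26), Tek in the right limb of SNX against sham rats (-0.25 to 0.12), and, for the difference of the responses, Angpt1 (-0.02 to 0.22), Angpt2 (-0.46 to 0.01) and Tek (-0.10 to 0.19). The last was -0.0048 (block -0.03) without the 2 right limb arrays and -0.06 without both arrays of rats 17 and 49. The mean of several probe sets per gene could not be tried, since each member has 1. Between 153 and 1007 probe sets were called over all rats when 1 rat was left out, against 791. With the random block these were 1163 to 3305, against 2808. In sham rats 0 to 284 were called without the block and 72 to 1567 with it, and in SNX rats 0 to 8 and 2 to 147. Dim signal limits Angpt1 and Tie1.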

Other observations

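Related lists add values beside the members, all for right against left over all rats. Of 7 angiopoietin-like genes, which share the domain plan of angiopoietins but do not bind Tie2, 4 were on the array and none passed, with Angptl4, an inhibitor of lipoprotein lipase, at 1.09 ± 0.97 (SE, limma adjusted p = 0.533) and Angptl2 at -0.15 ± 0.17 (adjusted p = 0.627). Of 6 lymphatic endothelial markers 2 rose with the rat as a random block (33.3%, against 9.05% of all probe sets). They were Pdpn (2.16 ± 0.53, adjusted p = 0.0217) and Lyve1 (1.05 ± 0.29, adjusted p = 0.038), which other stromal and macrophage populations can express as well. Neither in the fit without the block nor with the rat as a fixed term was a lymphatic marker called. Prox1, the defining lymphatic transcription factor, differed by -0.19 ± 0.52 (adjusted p = 0.823), and without 1 rat the blocked count ran from 0 (without sham rats 11 or 17 or SNX rat 37) to 2. None of 8 fibroblast, 4 neutrophil, 4 platelet, 8 slow fibre, 7 fast fibre and 3 myogenic markers passed in this comparison in either fit, with list medians of 0.42, 0.23, -0.01, 0.07, -0.05 and -0.15. Of 11 macrophage markers 7 rose with the random block (63.6%, against 9.05% of all probe sets) and 1, Cd14, without it (9.09% against 2.55%). The fixed term also called 1. The random block count was 1 without sham rats 11 or 17, without SNX rats 18 or 37, and without both arrays of rats 17 and 49.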
